A study of Homo sapiens with 9 samples.

Results

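The replication-dependent histone genes of the series were taken by symbol: H1-1 to H1-5 for the linker histone H1, and the numbered H2AC, H2BC, H3C and H4C genes for the core histones H2A, H2B, H3 and H4. Of 62703 genes in the table, 65 carried such a name, and the 56 with a value above 0 in at least 1 of 9 libraries are the members: 4 of H1, 15 of H2A, 14 of H2B, 12 of H3 and 11 of H4. The lowest member, H3C6, reached 0.10 TPM at most, where TPM is a transcript level scaled to gene length and to an equal total in every library. Just outside the rule were 9 genes at 0 in every library, H1-3, H2AC1, H2BC1, H2BC3, H2BC10, H3C11, H4C6, H4C7 and H4C13. Transcripts were measured by RNA sequencing in human cells labelled HepG2, the name of an established liver cancer line. All 3 groups first had 24 h in 750 µM palmitic acid (a saturated fatty acid), and each group has 3 libraries. In the group called curcumin with CuCl2, 20 µM curcumin and 5 µM CuCl2 were then given together for 12 h. In the curcumin group, 20 µM curcumin, a polyphenol of turmeric, was given for those 12 h without copper. The third group had palmitic acid alone, and the labels mention neither untreated nor vehicle-treated cells, nor a further 12 h for that group.

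Replication-dependent histone genes lie in clusters, have few or no introns, and are transcribed mainly in S phase, when new DNA has to be packed into nucleosomes. Most of their mRNAs end in a short stem-loop in place of a poly(A) tail. SLBP, the stem-loop binding protein, attaches there and takes part in processing, export, translation and decay of the mRNA. Some members are also known to give polyadenylated transcripts that run past the stem-loop. The labels name a stranded mRNA kit, of a kind known to select polyadenylated RNA, so each level below is that of the histone RNA which this selection captured. How much stem-loop-ended RNA escaped it was not tested.

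The stem-loops are shown because they are the feature that the selection of polyadenylated RNA bears on. The letters GGCNCTTTTNAGAGCC (N being any base) were searched in the GENCODE 29 transcripts on GRCh38, in which all 56 members were found, 4 of them under an older symbol. They stood in the models of 19 members, 5 of H2A, 10 of H2B and 4 of H3, and in 27 of 83129 coding transcripts overall (0.0325%). In 15 of the 19 the sequence was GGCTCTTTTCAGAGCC and in 4 it was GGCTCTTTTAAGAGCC. In 13 of the 19 the model ran on for 100 bases or more after the motif. Of the 37 members without it, 25 have models that all stop at the stop codon, H2BC12 and H1-2 among them, so the stretch after the coding sequence was not part of the search there. In the other 12, H4C14, H4C15 and H4C8 among them, the models were not all coding sequence alone. The letters other than N are fixed, so a stem-loop with other bases in its arms would be missed. A member without a match may therefore still have a stem-loop. The most abundant members with the motif are given with 5 bases on each side, the motif in capitals (H2AC18 lies on chromosome 1, the others on chromosome 6).
H2AC18: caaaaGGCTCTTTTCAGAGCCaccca
H2AC6: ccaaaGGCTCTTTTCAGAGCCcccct
H2BC15: acaacGGCTCTTTTCAGAGCCaccta
H2BC5: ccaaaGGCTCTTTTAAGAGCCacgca
The 4 differ in the flanks, and H2BC5 also in the loop between the arms of the stem. The model of H2AC6 continues for 1114 bases after the motif, whereas those of H2AC18, H2BC15 and H2BC5 continue for at most 35, 377 and 39 bases.

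Promoters were compared by class, since the classes are known to carry different elements before their starts. RefSeq promoter windows on GRCh38.p14, from 250 bases before to 50 after a gene's start, were at hand for 52 of the 56 members, and each motif was counted on both strands. CCAAT, a box bound by the factor NF-Y, was present in all 4 H1, 14 H2A, 14 H2B and 11 H3 windows and in 1 of 9 H4 windows, against 34.6% of 35116 promoters. TATAAA was present in 2 of 4 H1, 11 of 14 H2A, 10 of 14 H2B, 8 of 11 H3 and 4 of 9 H4 windows, against 11.5% of all promoters. ATTTGCAT, the octamer bound by POU2F1 (OCT1), was found in 10 of 14 H2A and 11 of 14 H2B windows, in 1 H3 window, and in no H1 or H4 window, against 1.77%. AAACACA, known as the H1 box, was in all 4 H1 windows, 1 H2A and 2 H3 windows, against 5.64%. GGTCC, letters of the H4 promoter element recognised by HINFP, was in all 9 H4 windows, 1 H1, 1 H2A, 4 H2B and 3 H3 windows, but these 5 letters also occur in 46.3% of all promoters. A match describes letters and does not show binding. H2A and H2B genes that lie back to back share part of their windows, so their counts are not independent. The windows of H4C14 and H4C15 are identical, and so are those of H3C4 and H2AC7, so the H3 window with the octamer is that of an H2A gene as well. A second start listed for H3C4 has no octamer in its window but has TATAAA, which the first lacks. For H3C6 the first listed start has TATAAA in its window and the second does not. The H3 counts of these motifs thus depend on the start used. No motif is contained in another.

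The bases just before the start are shown for the most abundant member of each class except H3, whose members were all low. Capitals mark the letters of any of the 5 motifs, on either strand. The windows, on GRCh38.p14, are chr6:27146859-27146988 (minus strand) for H2BC12, chr6:26056471-26056600 (minus) for H1-2, chr1:149842751-149842880 (minus) for H2AC18 and chr1:149832527-149832656 (plus) for H4C14.
H2BC12: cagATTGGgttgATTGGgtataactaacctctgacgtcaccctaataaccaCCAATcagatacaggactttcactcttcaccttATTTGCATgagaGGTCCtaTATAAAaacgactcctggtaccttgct
H1-2: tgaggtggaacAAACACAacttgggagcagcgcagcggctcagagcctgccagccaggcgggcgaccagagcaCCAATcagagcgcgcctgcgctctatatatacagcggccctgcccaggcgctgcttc
H2AC18: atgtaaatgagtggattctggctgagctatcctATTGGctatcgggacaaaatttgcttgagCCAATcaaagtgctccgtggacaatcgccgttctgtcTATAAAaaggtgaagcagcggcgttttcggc
H4C14: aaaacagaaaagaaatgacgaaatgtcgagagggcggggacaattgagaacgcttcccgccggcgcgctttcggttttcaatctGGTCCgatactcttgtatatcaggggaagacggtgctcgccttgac
H2BC12 has 3 CCAAT boxes, the octamer, GGTCC and TATAAA within these 130 bases, and its TATAAA begins 27 bases before the start. H1-2 has the H1 box 119 bases and a CCAAT box 57 bases before the start. H4C14 has only GGTCC, 46 bases before the start.

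**Figure D1:**
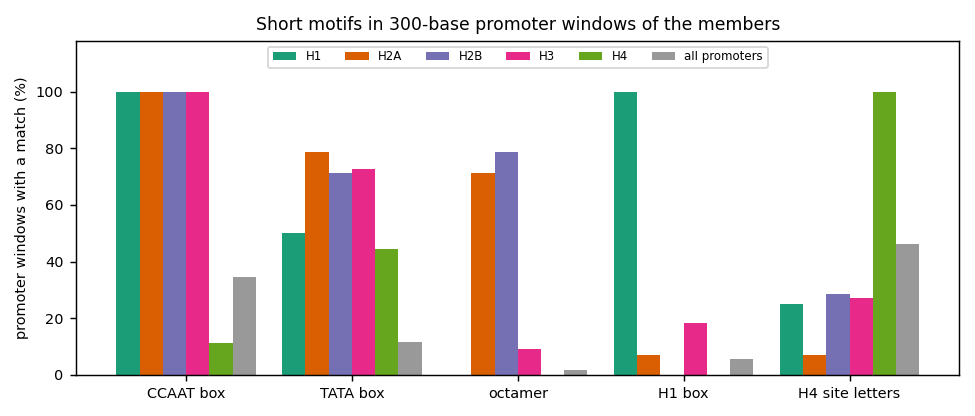
Share of promoter windows (%, vertical axis) that contain each of 5 motifs (horizontal axis), for the 4 H1, 14 H2A, 14 H2B, 11 H3 and 9 H4 windows searched and for all 35116 promoters (grey). CCAAT reaches every H1, H2A, H2B and H3 window, the octamer is seen in H2A and H2B windows and in 1 H3 window that is identical to one of H2A, and all 9 H4 windows hold GGTCC, which 46.3% of all promoters hold as well.

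Each library's column summed to between 999999 and 1000001 TPM, which says nothing of depth, with 13208 to 13737 genes per library at 1 TPM or more. The share of mitochondrial genes was 10.7% to 11.8% of the TPM with curcumin and CuCl2, 10.4% to 12.4% with curcumin, and 10.1% to 12.98% with palmitic acid alone. Markers of the labelled cell type were nearly absent, which goes against the label: 20 of 23 hepatocyte markers had a mean under 1 TPM, 8 of them at 0 in every library (ALB, the albumin gene, among them). CPS1 made up most of their summed level, which was 319 to 339.8 TPM with curcumin and CuCl2, 294 to 370 TPM with curcumin and 277 to 343 TPM with palmitic acid alone. Means were under 1 TPM for 8 of 10 fibroblast, 9 of 11 leukocyte and Kupffer cell and all 9 endothelial markers, with PDGFRA, CD3E, MS4A1, NKG7, CD163 and CLEC4F at 0 in every library. The fibroblast markers summed to 11.5 to 15.2 TPM with curcumin and CuCl2, 14.1 to 18.5 TPM with curcumin and 12.2 to 17.5 TPM with palmitic acid alone, and no endothelial or leukocyte and Kupffer cell list exceeded 11.2 TPM in any library. FAP, a fibroblast protease gene, fell with curcumin and CuCl2 against palmitic acid alone (log2 fold change -0.95, limma adjusted p = 0.0274, past the threshold in 10 of 18 alternatives), and its part in the histone levels was not tested. The labels do not say that the libraries of a group came from separate cultures, so a p-value here reflects only how far these libraries scatter, and that scatter may be technical. In RNA from whole cultures, fewer cells of a kind and less RNA per cell cannot be told apart, and a lower share of cells in S phase cannot be told apart from less histone RNA in each such cell.

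A few members held most of the captured histone RNA. H2BC12, an H2B gene at chr6:27146418-27146798 on the minus strand (GENCODE 29, GRCh38), had a mean of 753 TPM over the 9 libraries and made up 32.7% of the summed level of the 56 members. H1-2, a linker histone gene at chr6:26055787-26056428 on the minus strand, followed with 635 TPM and 27.5%. Next were the H2A genes H2AC18 (236 TPM, at chr1:149842188-149842736 on the minus strand) and H2AC6 (108 TPM), the H4 gene H4C14 (98.6 TPM), and the H2B genes H2BC15 (94.9 TPM) and H2BC5 (92.4 TPM). The first 9 members together passed 90% of the sum, 14 had a mean of at least 10 TPM, and the median member had 2.11 TPM.

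The 5 classes, whose products occur in nucleosomes in fixed proportions, were captured very unequally. H2B held 46.2% of the summed level, H1 27.6%, H2A 16.8%, H4 7.89% and H3 1.41%. In H1 nearly everything was H1-2, with 99.6% of its class, and in H2B the gene H2BC12 had 70.7%. H2AC18 had 60.8% of H2A and H4C14 had 54.2% of H4. The most abundant H3 gene, H3C2, averaged 11.4 TPM and had 35.2% of its class. By position in GENCODE 29 (GRCh38), 45 members lie on chromosome 6 between 26017085 and 27893843 and hold 83.2% of the sum. The other 11 lie on chromosome 1 between 149782689 and 149887916 and hold 16.8%, among them H2AC18 and H4C14.

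**Figure D2:**
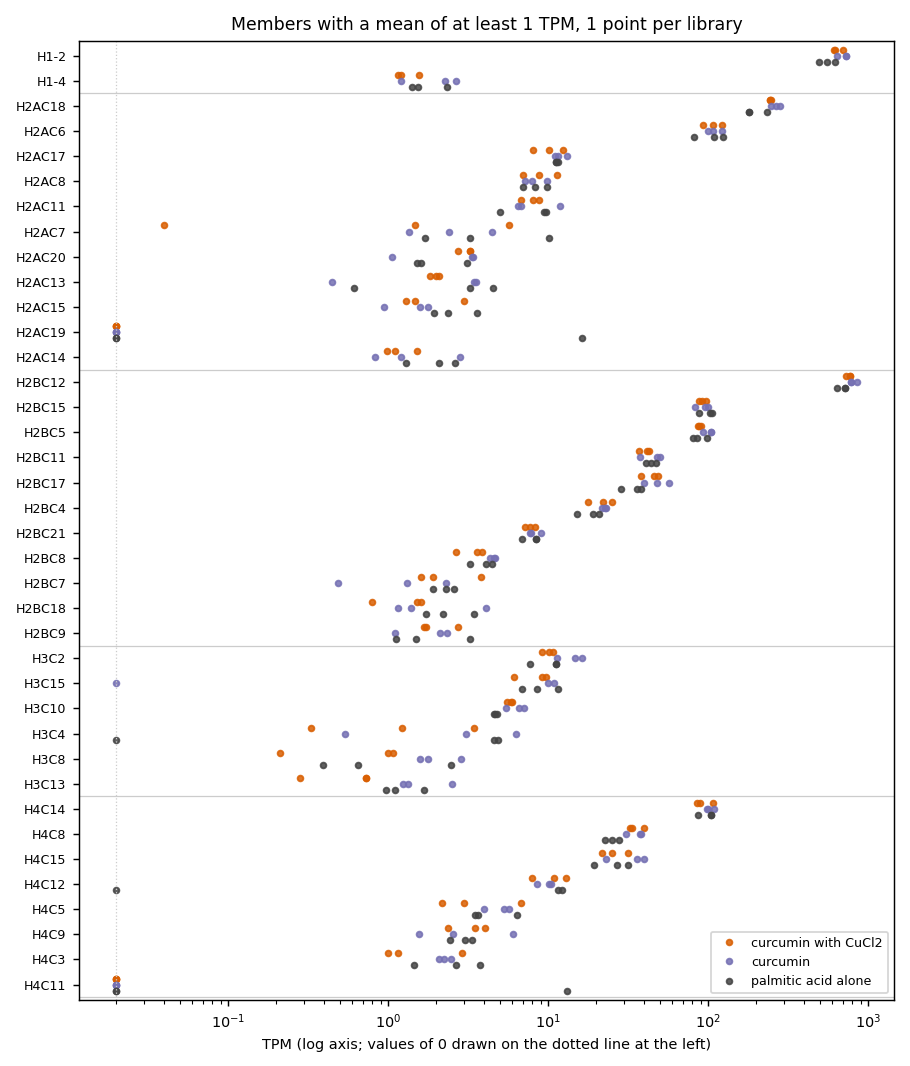
TPM (horizontal log axis, with 0 drawn on a dotted line at the left) of the 38 members with a mean of at least 1 TPM, ordered by class and level, with 1 point per library coloured by group. H2BC12 and H1-2 stand between 497 and 859.7 TPM in all 9 libraries, and every plotted H3 gene other than H3C2 lies under 12 TPM.

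Genes that share a promoter region often stood at different levels. Among members with a promoter window, an H2A and an H2B gene lay back to back in 9 places, with starts 194 to 248 bases apart. The H2B gene had the higher mean in 4 of these pairs and the H2A gene in 5. H2AC12 (0.971 TPM) had no window and was not searched for a partner. In GENCODE 29 it lies at chr6:27147129-27147515 on the plus strand, beside H2BC12 (753 TPM) on the minus strand. H2BC15 stood at 94.9 TPM and its partner H2AC15 at 2.002 TPM, a 47.4-fold difference. H2AC6 stood at 108 TPM against 20.8 TPM for H2BC4, and H2BC11 at 43.3 TPM against 8.13 TPM for H2AC11. The difference was 2.18-fold for H2AC8 and H2BC8 and 1.68-fold for H2AC7 and H2BC7, and in the pair named last the libraries overlapped (0.04 to 10.17 TPM for H2AC7 and 0.49 to 3.84 TPM for H2BC7). These are means over 9 libraries on the TPM scale, and no test was made between genes.

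Of the 56 members, 18 had a mean under 1 TPM (0.0167 to 0.971 TPM) and were left out of the tests, for which log2(TPM + 1) was fitted over all 9 libraries with limma. The lowest member tested, H3C13, had a mean of 1.18 TPM. The 38 tested were 2 of H1, 11 of H2A, 11 of H2B, 6 of H3 and 8 of H4. Fold changes below are differences of log2(TPM + 1), and for low genes they are smaller than those of TPM itself. H4C1, H2AC12, H3C14 and H2AC21 had the highest means among the untested members. H4C1 had 1.32, 2.36 and 1.36 TPM with curcumin and CuCl2, 0.71, 1.26 and 1.14 TPM with curcumin, and 0.30, 0.00 and 0.29 TPM with palmitic acid alone. It was thus lowest in the 3 libraries with palmitic acid alone, at levels where TPM gives no count of reads to judge by. H2AC12 ranged from 0.25 to 2.49 TPM and H2AC21 from 0.00 to 1.38 TPM over all 9 libraries, and H3C14 was above 0 in 1 library.

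Curcumin was set against palmitic acid alone to see which histone transcripts differ after curcumin in cells given palmitic acid. The summed level of the 56 members was 2492, 2530.0 and 2462 TPM with curcumin, against 2055, 2168 and 2129.6 TPM with palmitic acid alone. All 3 curcumin libraries lay above all 3 of the other group, with means of 2495 ± 34.2 TPM with curcumin and 2118 ± 57.6 TPM with palmitic acid alone (SD, n = 3 each) and a ratio of 1.18. Without H2BC12 and H1-2 the sums did not overlap, at 949 to 1025 TPM with curcumin and 836 to 895 TPM with palmitic acid alone. The summed levels of H1, H2A, H2B and H3 each kept the 2 groups apart, with ratios of 1.26, 1.18, 1.14 and 1.27, while those of H4 overlapped at a ratio of 1.12. No single member passed the test: 0 of 38 had a Benjamini-Hochberg adjusted p under 0.05 in limma, against 1.96% of all 13443 genes. The lowest adjusted p was 0.0713, for H2AC18.

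At an unadjusted p under 0.05, 7 of the 38 tested members (18.4%) were higher and 0 lower with curcumin, against 14% of all genes in either direction, 6.23% higher and 7.79% lower. They were H2BC12, H1-2, H2AC18, H2BC17, H4C8, H3C2 and H3C10. The groups did not overlap in 9 of 38 (23.7%), 8 higher and 1 lower, against 16.8% of all genes, 8.15% higher and 8.61% lower. A positive fold change was found in 25 of 38, against 46.3% of all genes. The median log2 fold change of the tested members was 0.07, against -0.02 over all genes. Of the 14 members with a mean of at least 10 TPM, 13 had a positive fold change, H2BC15 (-0.09) being the exception, against 47.2% of the 7530 genes at that level. The sign of H2AC6, H2BC11 and H4C14 turned when single libraries were left out, and 10 of the 14 were positive whichever library was left out. How many of the 7530 genes kept their sign in this way was not counted, here or in the comparisons below. For 11 of the 38, the 95% interval of the fold change lay within 1.5-fold either way. Without replicate 3 of palmitic acid alone, 2 of 38 members passed limma's test, H1-2 (0.42, adjusted p = 0.0323) and H2AC18 (0.55, adjusted p = 0.00503). In that fit 619 of 13443 genes passed, against 264 with all libraries, so the shares of members and of all genes were close. With each library's mitochondrial share as a covariate, an alternative added after the data had been seen, 7 of 38 members and 1505 of 13443 genes passed.

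Curcumin with CuCl2 was set against the same 3 libraries of palmitic acid alone, so the 2 comparisons are not independent. The summed level was 2336, 2304 and 2288 TPM with curcumin and CuCl2, against 2055, 2168 and 2129.6 TPM with palmitic acid alone. The groups did not overlap, with means of 2309 ± 24.4 TPM with curcumin and CuCl2 and 2118 ± 57.6 TPM with palmitic acid alone (SD, n = 3 each) and a ratio of 1.09. Without H2BC12 and H1-2 the sums overlapped, at 866, 953 and 901 TPM with curcumin and CuCl2 and 836, 895 and 866 TPM with palmitic acid alone. H2A and H2B kept the groups apart at ratios of 1.11 and 1.06, and H1, H3 and H4 overlapped at 1.16, 0.921 and 1.03. Again 0 of 38 members passed limma's test at an adjusted p under 0.05, against 1.44% of all genes, and the lowest adjusted p was 0.0967, for H4C8.

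At an unadjusted p under 0.05, 4 of 38 (10.5%) were higher with curcumin and CuCl2 and 0 lower, H1-2, H2AC18, H2BC17 and H4C8, against 13.5% of all genes, 5.57% higher and 7.97% lower. The groups did not overlap in 7 of 38 (18.4%), 5 higher and 2 lower, against 19% of all genes, 8.67% higher and 10.3% lower, so that share was no larger among the members than elsewhere. A positive fold change was found in 18 of 38, against 43.8% of all genes. The median log2 fold change was -0.05, against -0.03 over all genes, and the interval lay within 1.5-fold for 16 members. Of the 14 members with at least 10 TPM, 10 had a positive fold change, against 45.2% of genes at that level, and 6 were positive whichever library was left out. Without replicate 3 of palmitic acid alone, H2AC18 alone of the 38 members passed limma's test (0.44, adjusted p = 0.0127). In that fit 527 of 13443 genes passed, against 194 with all libraries, so the share was no larger among the members. With mitochondrial share as a covariate, 4 of 38 members and 1436 of 13443 genes passed, a share no larger among the members than elsewhere.

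Curcumin with CuCl2 was set against curcumin to see which histone transcripts differ when copper is added. The curcumin libraries are the same 3 that were set against palmitic acid alone, so this comparison is not independent of the earlier ones. A high value in a curcumin library raises the fold change there and lowers it here. The summed level was 2309 ± 24.4 TPM with curcumin and CuCl2 and 2495 ± 34.2 TPM with curcumin (SD, n = 3 each), a ratio of 0.926, and the groups did not overlap. Sums of H2A, H2B and H3 kept the groups apart at ratios of 0.938, 0.932 and 0.727, and those of H1 and H4 overlapped at 0.920 and 0.923. Without H2BC12 and H1-2 the sums overlapped, at 866 to 953 TPM with curcumin and CuCl2 and 949 to 1025 TPM with curcumin. By single genes 0 of 38 members, and 0% of all genes, passed limma's test, with an adjusted p = 1 for every member.

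At an unadjusted p under 0.05, 4 of 38 (10.5%) were lower with the added CuCl2 and 0 higher, against 1.6% of all genes, 0.833% lower and 0.766% higher. They were H3C2, H2BC8, H3C8 and H3C13, of which 3 are H3 genes. H3C8 and H3C13 had means of only 1.34 and 1.18 TPM, and the H3 class held 1.41% of the summed level. The groups did not overlap in 7 of 38 (18.4%), all lower, against 6.24% of all genes, 3.61% lower and 2.63% higher. Besides those 4 they were H2BC12, H2AC18 and H2BC5. A positive fold change was found in 8 of 38, against 45.6% of all genes. All 14 members with at least 10 TPM had a negative fold change, from -0.45 to -0.01, against 53.5% of genes at that level. That count depended on single libraries, since 9 of the 14 were negative whichever library was left out. It was 10 without replicate 1 of curcumin with CuCl2 and 10 without replicate 2 of curcumin, and H2AC6, H2BC4, H2BC15, H2BC17 and H4C8 were positive in at least 1 such fit. The median over the tested members was -0.11, against -0.01 over all genes, and for 15 of the 38 the interval lay within 1.5-fold either way.

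**Figure D3:**
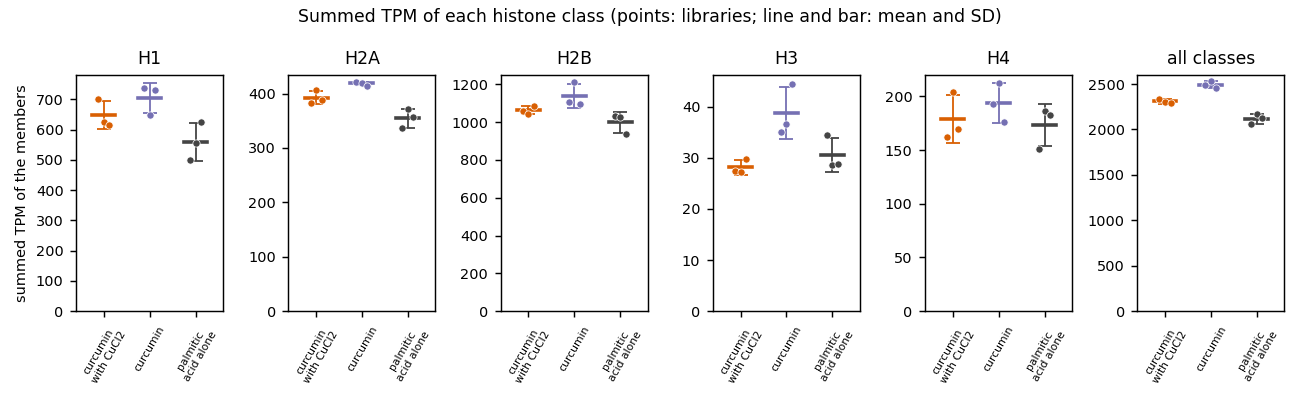
Summed TPM (vertical axis from 0, a scale of its own in each panel) of the members of each histone class and of all classes, by group. Points are libraries, and the line and bar are mean and SD. In the sum of all classes the 3 groups do not overlap, and in H3 the curcumin libraries (35.1 to 44.5 TPM) lie above those with curcumin and CuCl2 (27.2 to 29.9 TPM) and those with palmitic acid alone (28.5 to 34.5 TPM).

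Linker histone H1 binds the DNA where it enters and leaves the nucleosome. H1-2 had 700.4, 624 and 615 TPM with curcumin and CuCl2, 734, 645 and 728 TPM with curcumin, and 497, 553 and 622 TPM with palmitic acid alone. Its curcumin libraries were all above those with palmitic acid alone, while the group with CuCl2 overlapped both others. The log2 fold change against palmitic acid alone was 0.34 (SE 0.09, limma adjusted p = 0.119) with curcumin and 0.22 (SE 0.09, adjusted p = 0.343) with curcumin and CuCl2. Between the treated groups it was -0.12. H1-4, another linker histone gene, lay between 1.16 and 2.65 TPM in all 9 libraries, with overlapping groups in each comparison.

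Among the H2A genes, whose proteins pair with H2B in the nucleosome, H2AC18 had 247, 243 and 245 TPM with curcumin and CuCl2, 284, 247 and 266 TPM with curcumin, and 180.4, 181 and 234 TPM with palmitic acid alone. Each treated group lay above palmitic acid alone, and the libraries with CuCl2 lay below those with curcumin, though the nearest values, 246.66 TPM with CuCl2 and 247.09 TPM with curcumin, were close. Its log2 fold changes against palmitic acid alone were 0.43 (SE 0.10, adjusted p = 0.0713) with curcumin and 0.31 (SE 0.10, adjusted p = 0.185) with curcumin and CuCl2. H2AC6 had 93.9, 123 and 107 TPM with curcumin and CuCl2, 100.45, 123 and 108 TPM with curcumin, and 109.7, 124 and 82.4 TPM with palmitic acid alone. These ranges overlapped throughout, and its fold changes in the 3 comparisons lay between -0.03 and 0.08. H2AC17 had 10.2, 12.4 and 8.07 TPM with curcumin and CuCl2, 11.1, 13.15 and 11.6 TPM with curcumin, and 11.6, 11.2 and 11.2 TPM with palmitic acid alone, again with overlap. H2AC15 was low, with 1.47, 2.99 and 1.3 TPM with curcumin and CuCl2, 1.79, 1.58 and 0.95 TPM with curcumin, and 2.37, 1.95 and 3.62 TPM with palmitic acid alone. It was the member that lay lower with curcumin without overlap (log2 fold change -0.57, SE 0.26, adjusted p = 0.374). The remaining tested H2A genes, H2AC7, H2AC8, H2AC11, H2AC13, H2AC14, H2AC19 and H2AC20, had overlapping groups in each comparison.

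Among the H2B genes, H2BC12 had 769, 727 and 772 TPM with curcumin and CuCl2, 785, 859.7 and 785 TPM with curcumin, and 722, 721 and 641 TPM with palmitic acid alone. The 3 groups followed each other without overlap, curcumin highest and palmitic acid alone lowest. The log2 fold change against palmitic acid alone was 0.22 (SE 0.07, adjusted p = 0.152) with curcumin and 0.12 (SE 0.07, adjusted p = 0.474) with curcumin and CuCl2, and that of the added copper was -0.10. Without replicate 3 of palmitic acid alone the value for curcumin with CuCl2 was 0.067, and without replicate 2 of curcumin that of the added copper was -0.05. H2BC17 had 38.3, 48.7 and 45.8 TPM with curcumin and CuCl2, 39.7, 57.4 and 48.0 TPM with curcumin, and 36.1, 38.05 and 28.5 TPM with palmitic acid alone. Both treated groups lay above palmitic acid alone, with nearest values of 38.28 TPM with curcumin and CuCl2 and 38.05 TPM with palmitic acid alone, and they overlapped each other. Its fold changes were 0.48 (SE 0.16, adjusted p = 0.182) with curcumin and 0.37 (SE 0.16, adjusted p = 0.336) with curcumin and CuCl2. H2BC5 had 88.3, 86.35 and 90.3 TPM with curcumin and CuCl2, 104, 104 and 93.5 TPM with curcumin, and 80.4, 85.4 and 98.7 TPM with palmitic acid alone. It was lower with the added CuCl2 than with curcumin in every library (-0.18, SE 0.09, adjusted p = 1).

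In the other H2B genes the groups overlapped in at least 2 of the 3 comparisons. H2BC15 had 88.2, 91.4 and 97.2 TPM with curcumin and CuCl2, 101, 95.4 and 83.2 TPM with curcumin, and 107, 103 and 88.6 TPM with palmitic acid alone, with overlap throughout. H2BC11 had 41.6, 42.9 and 37.2 TPM with curcumin and CuCl2, 37.5, 50.1 and 48.1 TPM with curcumin, and 47.4, 40.8 and 44.4 TPM with palmitic acid alone, overlapping likewise. H2BC4 had 17.9, 25.1 and 22.0 TPM with curcumin and CuCl2, 21.7, 23.0 and 22.7 TPM with curcumin, and 20.8, 19.2 and 15.2 TPM with palmitic acid alone. Its curcumin libraries were above those with palmitic acid alone (0.29, SE 0.14, adjusted p = 0.424). H2BC8 had 3.88, 3.59 and 2.67 TPM with curcumin and CuCl2, 4.37, 4.60 and 4.66 TPM with curcumin, and 3.24, 4.45 and 4.11 TPM with palmitic acid alone. It was lower with the added CuCl2 than with curcumin in every library (-0.35, SE 0.15, adjusted p = 1). H2BC18 was lower with curcumin and CuCl2, at 0.79 to 1.60 TPM, than with palmitic acid alone, at 1.74 to 3.46 TPM (-0.58, SE 0.33, adjusted p = 0.511). H2BC7, H2BC9 and H2BC21 had overlapping groups in each comparison.

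H3 and H4 form the central tetramer of the nucleosome. H3C2, the leading H3 gene, had 10.1, 9.17 and 10.8 TPM with curcumin and CuCl2, 16.3, 11.4 and 14.85 TPM with curcumin, and 11.2, 11.25 and 7.75 TPM with palmitic acid alone. The curcumin libraries lay above those of both other groups, which overlapped each other. Its log2 fold changes were 0.46 (SE 0.17, adjusted p = 0.249) for curcumin against palmitic acid alone and -0.45 (SE 0.17, adjusted p = 1) for curcumin with CuCl2 against curcumin. H3C10 had 5.58, 6.0 and 5.88 TPM with curcumin and CuCl2, 5.48, 7.10 and 6.59 TPM with curcumin, and 4.62, 4.67 and 4.84 TPM with palmitic acid alone. Here both treated groups were above palmitic acid alone (0.26 with CuCl2, adjusted p = 0.399, and 0.37 with curcumin, adjusted p = 0.187). H3C13 had 0.73, 0.28 and 0.73 TPM with curcumin and CuCl2, 2.51, 1.24 and 1.33 TPM with curcumin, and 1.11, 1.69 and 0.97 TPM with palmitic acid alone. It was lowest in the 3 libraries with CuCl2, at -0.75 (SE 0.23, adjusted p = 1) against curcumin and -0.52 (SE 0.23, adjusted p = 0.378) against palmitic acid alone. H3C8 had 0.21, 1.00 and 1.08 TPM with curcumin and CuCl2, 1.79, 1.58 and 2.86 TPM with curcumin, and 0.39, 0.65 and 2.48 TPM with palmitic acid alone. With CuCl2 it was below curcumin in every library (-0.82, SE 0.36, adjusted p = 1). H3C4 (0.00 to 6.33 TPM) and H3C15 (0.00 to 11.5 TPM) overlapped in each comparison.

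Among the H4 genes, H4C8 had 33.45, 40.1 and 32.7 TPM with curcumin and CuCl2, 37.5, 38.3 and 30.9 TPM with curcumin, and 22.8, 27.85 and 25.03 TPM with palmitic acid alone. Both treated groups lay above palmitic acid alone and overlapped each other. The fold changes against palmitic acid alone were 0.48 (SE 0.12, adjusted p = 0.0875) with curcumin and 0.47 (SE 0.12, adjusted p = 0.0967) with curcumin and CuCl2, and the difference between the treated groups was -0.01 (95% interval -0.28 to 0.26). H4C14, the most abundant H4 gene, had 89.1, 108 and 86.05 TPM with curcumin and CuCl2, 98.6, 110.0 and 100.4 TPM with curcumin, and 86.8, 104 and 105 TPM with palmitic acid alone. H4C15 had 21.7, 31.45 and 24.99 TPM with curcumin and CuCl2, 35.8, 39.7 and 23.0 TPM with curcumin, and 19.4, 31.5 and 26.9 TPM with palmitic acid alone. Both overlapped in each comparison, as did H4C3, H4C5, H4C9, H4C11 and H4C12. The direction of the H4 sum for curcumin with CuCl2 against palmitic acid alone (log2 ratio 0.04) depended on single libraries, being -0.06 without replicate 2 of curcumin with CuCl2 and -0.05 without replicate 1 of palmitic acid alone.

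**Figure D4:**
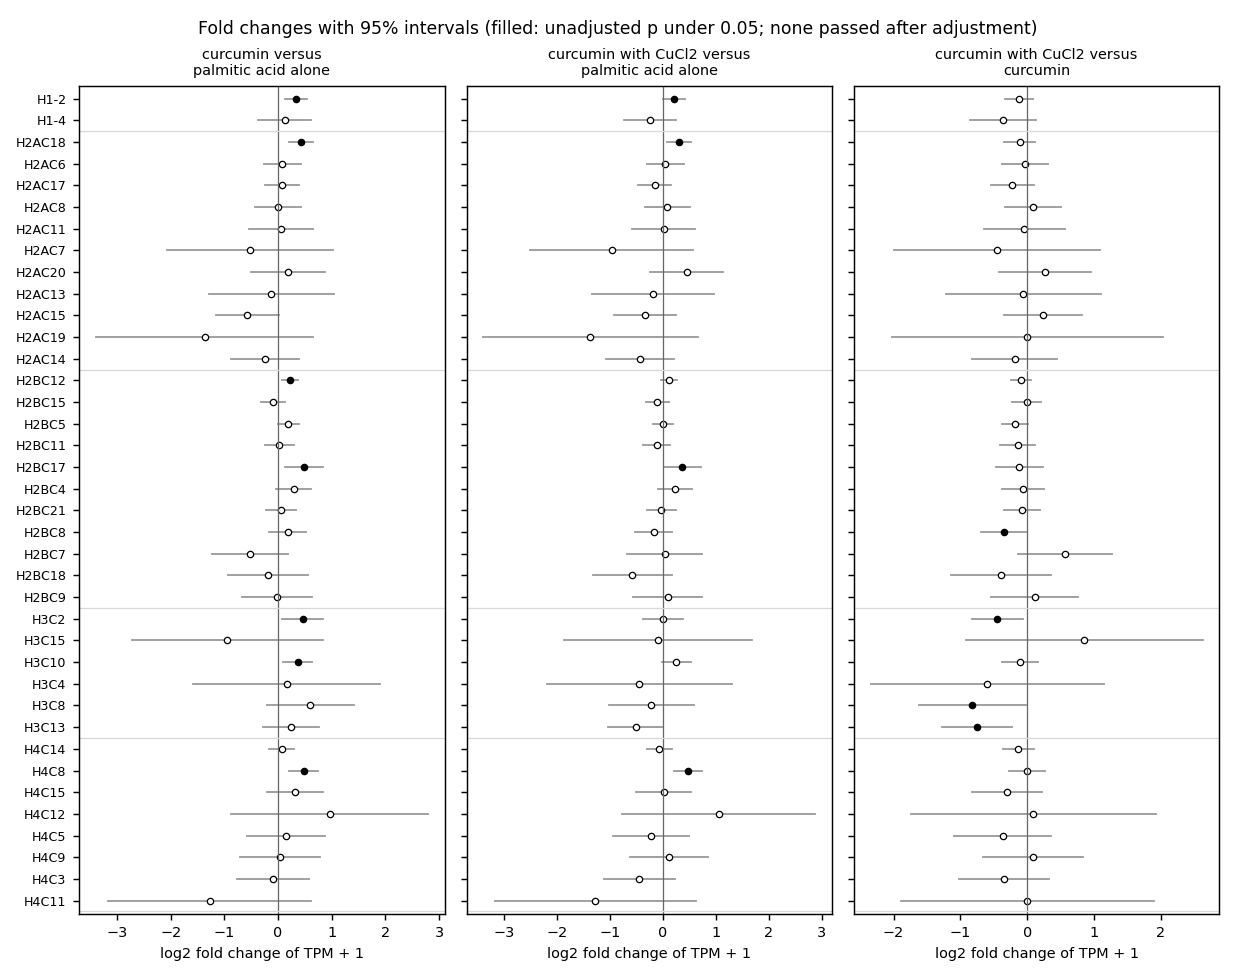
Log2 fold change of TPM + 1 (horizontal axis) with 95% interval for the 38 tested members, by class and level, in the 3 comparisons. Filled points have an unadjusted p under 0.05 (7, 4 and 4 members from left to right), and none passed after adjustment.

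Several members are near-identical copies, and the way in which reads were divided between them is uncertain. Models that shared a run of at least 300 identical bases were H2AC18 with H2AC19 (549 bases), H3C14 with H3C15 (1656), H4C11 with H4C12 (312), H4C14 with H4C15 (583) and H2AC13 with H2AC14 (332). H2AC19 was listed at 16.2 TPM in replicate 2 of palmitic acid alone and at 0 in the other 8 libraries. H4C11 was listed at 13.2 TPM in that same library, in which H4C12 was at 0, and at 0 in the other 8. H3C14 was listed at 7.91 TPM in replicate 1 of curcumin, in which H3C15 was at 0, and at 0 in the other 8. Summed, H4C11 and H4C12 lay between 7.94 and 13.2 TPM in all 9 libraries, and H3C14 and H3C15 between 6.16 and 11.5 TPM. H4C14 and H4C15 summed to 111, 139 and 111 TPM with curcumin and CuCl2, 134, 149.7 and 123 TPM with curcumin, and 106, 136 and 132 TPM with palmitic acid alone. With H2AC19 added, H2AC18 had a mean of 204 ± 27.2 TPM with palmitic acid alone in place of 198 ± 30.6 TPM (SD, n = 3). The single estimates of H2AC19, H4C11, H4C12 and H3C15, as large as -1.37 and 1.05, each rest on such a library. When the copies were summed before the fit, the count past the threshold was still 0 in each comparison.

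**Figure D5:**
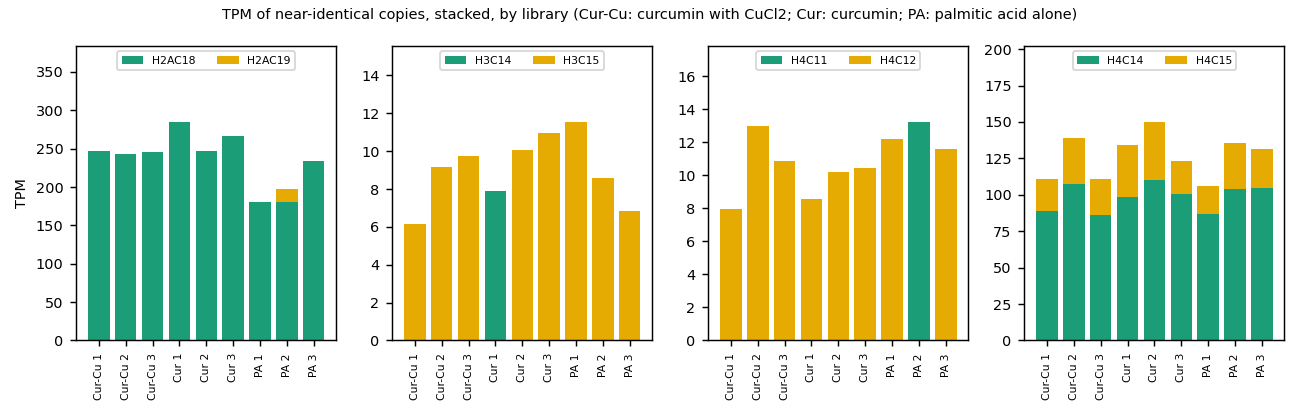
TPM (vertical axis from 0) of 4 pairs of near-identical histone genes, stacked, in each of the 9 libraries (Cur-Cu, curcumin with CuCl2, then Cur, curcumin, then PA, palmitic acid alone). H4C11 replaces H4C12 in replicate 2 of palmitic acid alone and H3C14 replaces H3C15 in replicate 1 of curcumin, with pair totals of 13.2 and 7.91 TPM there.

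Histone variant genes that lie outside the replication-dependent clusters, most of which give polyadenylated mRNAs, were set beside the members. Of 12 such genes, 10 were tested, and the 12 summed to 2479 to 2538 TPM with curcumin and CuCl2, 2502 to 2555 TPM with curcumin, and 2367 to 2457 TPM with palmitic acid alone, so this list was about as abundant as the members. As with the members, the sums of both treated groups lay above those with palmitic acid alone without overlap. Unlike those of the members, the sums of the treated groups overlapped each other. H2AZ1, the gene of the variant H2A.Z, had 717, 713 and 712 TPM with curcumin and CuCl2, 727, 728 and 708 TPM with curcumin, and 532, 602 and 593 TPM with palmitic acid alone. It rose in both comparisons with palmitic acid alone, by 0.33 (SE 0.06, adjusted p = 0.0271) with curcumin and by 0.31 (SE 0.06, adjusted p = 0.0363) with curcumin and CuCl2. The call held in 7 and 6 of 19 alternatives, and the adjusted p ranged from 0.00574 to 0.166 and from 0.00654 to 0.158. The other 9 did not pass in any comparison. At an unadjusted p under 0.05 the list had 2 higher and 4 lower with curcumin and CuCl2, against 5.57% and 7.97% of all genes. With curcumin it had 1 higher and 3 lower, against 6.23% and 7.79% of all genes. H3-3A and H3-3B, which both encode the variant H3.3, had fold changes of 0.13 and -0.13 with curcumin and CuCl2 and 0.14 and -0.09 with curcumin. H2AX, the gene of a variant known from the DNA damage response, had 0.01 and -0.01. Of 9 histone genes whose names lie outside the rule and which are not in that list, 3 were tested, H2AW, H2BU1 and H4-16, and none passed (1 at an unadjusted p under 0.05 with curcumin, 0 with curcumin and CuCl2).

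The genes that act on histone transcription or on histone mRNA did not pass. Of 15 in the list, 0 passed limma's test in any comparison, while at an unadjusted p under 0.05 there was 1 (higher) with curcumin and CuCl2 and 2 (1 higher, 1 lower) with curcumin against palmitic acid alone, where all genes had 13.5% and 14%, and 0 between the treated groups. SLBP had 69.8, 76.1 and 73.85 TPM with curcumin and CuCl2, 69.1, 82.1 and 74.0 TPM with curcumin, and 75.4, 74.4 and 62.95 TPM with palmitic acid alone. Its groups overlapped, with fold changes of 0.05 and 0.08 against palmitic acid alone (95% intervals -0.16 to 0.26 and -0.13 to 0.29). NPAT, the coactivator of histone gene transcription, averaged 7.04 ± 0.75 TPM with curcumin and CuCl2, 7.60 ± 2.43 TPM with curcumin, and 7.74 ± 3.23 TPM with palmitic acid alone (SD, n = 3 each). Nor did any of 16 histone chaperones pass. At an unadjusted p under 0.05, 2 were higher and 1 lower for curcumin with CuCl2 against palmitic acid alone, beside 5.57% and 7.97% of all genes. For curcumin 4 were higher and 2 lower, beside 6.23% and 7.79% of all genes.

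Cell cycle genes were read because histone transcription is tied to S phase. Of 21 S phase genes, MCM7, a subunit of the replicative helicase, fell by 0.84 with curcumin and CuCl2 (adjusted p = 0.000561) and by 0.91 with curcumin (adjusted p = 0.000273), and it passed in all 19 alternatives of each. PCNA, the sliding clamp of DNA polymerase, had 255, 261 and 254 TPM with curcumin and CuCl2, 239, 263 and 251 TPM with curcumin, and 211, 211 and 186 TPM with palmitic acid alone. It rose by 0.34 with curcumin and CuCl2 (adjusted p = 0.0474, past the threshold in 6 of 19 alternatives) and had 0.31 with curcumin (adjusted p = 0.0584). The other 19 S phase genes did not pass. At an unadjusted p under 0.05 the list had 1 higher (PCNA) and 1 lower (MCM7) with curcumin and CuCl2, against 5.57% of all genes higher and 7.97% lower. With curcumin it had 4 higher and 1 lower, against 6.23% higher and 7.79% lower. Those higher were PCNA, MCM3, PRIM1 and E2F1, named here after their values were seen, and the median of the list was 0.10 in each comparison with palmitic acid alone. None of 10 G2 and M phase genes and none of 7 CDK inhibitor genes passed limma's test. At an unadjusted p under 0.05 the G2 and M phase list had 0 higher and 2 lower in each comparison with palmitic acid alone. The 7 CDK inhibitors had 0 higher and 4 lower with curcumin and CuCl2 and 1 higher and 4 lower with curcumin. Over all genes the shares were 5.57% higher and 7.97% lower with curcumin and CuCl2, and 6.23% higher and 7.79% lower with curcumin. None of these lists had a gene at that level between the treated groups. What part the cell cycle had in the histone levels was not tested.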

How the data were processed

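The authors deposited 1 table of TPM values (scaled to gene length and to an equal total per library) for 62703 genes and 9 libraries. TRIzol extraction and a stranded Illumina mRNA kit are given in the labels' protocols. The submitters' processing notes name HISAT2 2.1.0, RSEM 1.3.3 and GRCh38.p13, while their roles and the annotation release are not given in the sources used here. TPM keeps no depth, so no counting interval could be given and no count model was used. Groups came from the sample titles. Values were fitted as log2(TPM + 1) with limma 3.58.1 in R 4.3.3 (variance trend, 1 mean per group, all 9 libraries, two-sided, Benjamini-Hochberg over the 13443 genes averaging 1 TPM or more, threshold 0.05), which was tested on simulated data first. Class sums are plain sums of TPM over the members and carry no test. Python 3.11.15 with matplotlib 3.10.9 made the figures. Every member with a mean of at least 1 TPM is named and plotted in each library, with values in sentences for those the results turn on. From each other list the genes past the threshold are named, and SLBP, NPAT, PCNA, H2AZ1, H3-3A, H3-3B and H2AX whatever their values, while 1 more gene of that rule is not reported here. The members and lists were chosen with earlier results of these data known. Alternatives were other pseudocounts, filters, scaling and fits, a replicate block, leaving out each library and 3 added after the data had been seen. Gene coordinates and stem-loops came from GENCODE 29, promoters from RefSeq. Where a gene had several listed starts, the first was used.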

Additional observations from a re-analysis of the deposited data

How the results depend on the processing

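The count of members past the threshold was 0 in each comparison, and it was also 0 with pseudocounts of 0.1 and 5, without a filter, with scaling by median of ratios, with a filter at a mean of 5 TPM, with only the 2 groups compared, without the variance trend and with copies summed. With mitochondrial share as a covariate it was 7 of 38 for curcumin and 4 of 38 for curcumin with CuCl2 against palmitic acid alone, and 0 between the treated groups. In that fit 1505, 1436 and 0 of all 13443 genes passed. Leaving out each library in turn gave 0 to 2, 0 to 1 and 0, all above 0 being without replicate 3 of palmitic acid alone. Without that library, 619 and 527 of 13443 genes passed in the comparisons with palmitic acid alone. The labels state no pairing by replicate number. Same-numbered libraries correlated at -0.27 to 0.25 in their deviations from the group means, and 2 of 9 pairs exceeded 0.1. Libraries with different numbers were not compared in this way, so these values do not settle whether the numbers pair the libraries. With the replicate block, 0 members passed in each comparison, and 177, 147 and 0 of all genes. All genes past the threshold numbered 35, 65 and 3 with only the 2 groups compared, 104, 114 and 3 without a filter and 130, 133 and 0 without the variance trend, and leaving out libraries gave 54 to 619, 46 to 527 and 0 to 4. The log2 ratio of the summed level of all classes, 0.24 for curcumin and 0.13 for curcumin with CuCl2 against palmitic acid alone, was 0.18 and 0.067 without H2BC12 and H1-2, an alternative added after the data had been seen. Leaving out each library gave 0.22 to 0.25 and 0.10 to 0.14, and -0.12 to -0.10 between the treated groups. Of the class sums for curcumin with CuCl2 against palmitic acid alone, H1 (0.21) was 0.14 and H3 (-0.12) was -0.02 without replicate 1 of palmitic acid alone, and H2B (0.09) was 0.04 without its replicate 3. Against curcumin, H1 (-0.12) was -0.18 without replicate 1 of curcumin with CuCl2 and H2B (-0.10) was -0.05 without replicate 2 of curcumin. H4 ranged from -0.06 to 0.11 for curcumin with CuCl2 against palmitic acid alone, from 0.07 to 0.23 for curcumin against palmitic acid alone, and from -0.22 to -0.04 between the treated groups. Among single named genes, only values past the threshold at first could lose it or reverse. They were MCM7 and H2AZ1 in both comparisons with palmitic acid alone, and PCNA and FAP with curcumin and CuCl2 against it. None reversed, but 46 of their alternative values lost the threshold. MCM7 passed in all 19 alternatives of each comparison, H2AZ1 in 7 and 6 of 19, PCNA in 6 of 19 and FAP in 10 of 18. Of values not past the threshold at first, 23 passed it newly. Another 2595 values did neither, most of them never past it. The cause of these moves was not tested. Depth is unknown, which limits what can be said of members under about 1 TPM.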
